A study of Homo sapiens with 6 samples.

Results

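Transcripts of the 3 D-type cyclins, the kinases CDK4 and CDK6 and 5 inhibitors of these kinases were followed in RL95-2, a long-established cell line from a human endometrial carcinoma, with and without adipocyte-conditioned medium (ADP-CM). These 10 genes were chosen by symbol (CCND1, CCND2, CCND3, CDK4, CDK6, CDKN1A, CDKN1B, CDKN1C, CDKN2B and CDKN2C), and all 10 were present among the 23228 genes of the count tables. The 3 control samples were RL95-2 cells kept for 24 h in serum-free medium, equal parts of RPMI and DMEM. The 3 ADP-CM samples were kept for 24 h in serum-free RPMI with an equal part of DMEM that mature adipocytes from human visceral fat had conditioned and that was then filtered. The adipocytes came from tissue donors and the response was read in a single cell line, so the values describe that line only. The labels number the samples within a group but do not say that they were separate cultures, and the p-values then measure the spread between these samples, which may be technical.

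D-type cyclins bind CDK4 or CDK6 early in the G1 phase, and the active kinase phosphorylates the retinoblastoma protein so that E2F factors can switch on the genes of S phase. Growth factor and cytokine signals act on this step through the synthesis of the cyclins. Inhibitors of the INK4 family bind CDK4 and CDK6 and keep the cyclin out, while the Cip/Kip proteins bind cyclin-CDK complexes more broadly and restrain CDK2. In endometrial epithelium the balance of these proteins follows hormones and growth signals.

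The libraries held between 16262614 and 18363033 reads counted on genes, and the 3 ADP-CM libraries were all deeper than the 3 control libraries. Reads on no gene made up 10.2% to 10.3% of the total in control and 11.5% to 11.6% in ADP-CM. That total is the sum of the counts on genes and of the lines that HTSeq gives for unassigned reads. Their part in the results was not tested. All 8 epithelial markers had reads, with KRT8 at 1843 ± 14.04 CPM and CDH1 at 162.8 ± 4.92 CPM in control (SD, n = 3; CPM are counts scaled to the library size, with TMM normalization). ESR1 and MUC1 were near the floor, at 1.51 and 0.954 CPM in control. In ADP-CM 2 of the 8, PAX8 and MUC1, were raised and 4 were lowered, against 13.5% and 13% of all tested genes. The call of MUC1 was lost without ADP-CM replicate 3 (adjusted p-value 0.0417 in the edgeR test). Among the epithelial markers KRT19 fell the most, from 267.5 ± 3.88 to 148.6 ± 4.15 CPM (SD, n = 3 each). KRT8 and CDH1 stood at 1438 and 121.6 CPM in ADP-CM, and PAX8 went from 150.1 to 181.8 CPM. The defining adipocyte markers ADIPOQ and LEP had 0 reads in every library. The summed level of the 8 adipocyte markers was 10.1 to 10.7 CPM in control and 10.4 to 12.2 CPM in ADP-CM, nearly all of it CFD. The summed stromal markers lay at 61.5 to 68.4 CPM in control and at 78.3 to 79.1 CPM in ADP-CM, carried by COL1A1, with THY1 at 0 reads and DCN at 2 reads or fewer in every library. The leukocyte markers summed to 7.19 to 8.23 CPM in control and 9.87 to 11.96 CPM in ADP-CM, carried by CD68, with PTPRC at 1 read or fewer, and the endothelial markers summed to 60.7 to 66.4 and 54.5 to 61.6 CPM, carried by CDH5, with KDR at 0 reads. The part of these marker differences in the results was not tested.

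The comparison asks how transcription in endometrial cancer cells differs in medium conditioned by adipocytes. Which part of that medium was behind a difference was not tested. In ADP-CM the 10 genes differed from control in both directions. CCND2 and CDK6 rose, CDKN2C, CDKN1A and CDKN1B fell, CCND1 and CCND3 fell to a smaller degree, and CDK4, CDKN2B and CDKN1C did not pass the test. Counts were compared by edgeR's quasi-likelihood test over all 12663 genes that passed the filter on low counts, and a gene was called at a Benjamini-Hochberg adjusted p-value under 0.01. All 10 genes were tested, of which 2 were raised and 5 were lowered. Of all tested genes 26.5% were called in either direction, 13.5% raised and 13% lowered. With the limit relaxed to 0.05 the counts of 2 and 5 stayed as they were, against 36.7% of all tested genes, and DESeq2 called 2 raised and 3 lowered, against 16.8%. With a fold change over 1.5 required as well, the limit in the study's methods, 0 of the 10 were raised and 1, CDKN2C, was lowered, against 1.14% of all tested genes in each direction and 2.27% in either. The groups did not overlap for 8 of the 10 genes, where this held for 45.5% of all tested genes. The 8 include CDKN1C, which was not called and whose groups nearly met, at 0.986 CPM in control and 0.982 CPM in ADP-CM. The median log2 fold change of the 10 genes was -0.11, and that of all tested genes was -0.0023.

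**Figure D1:**
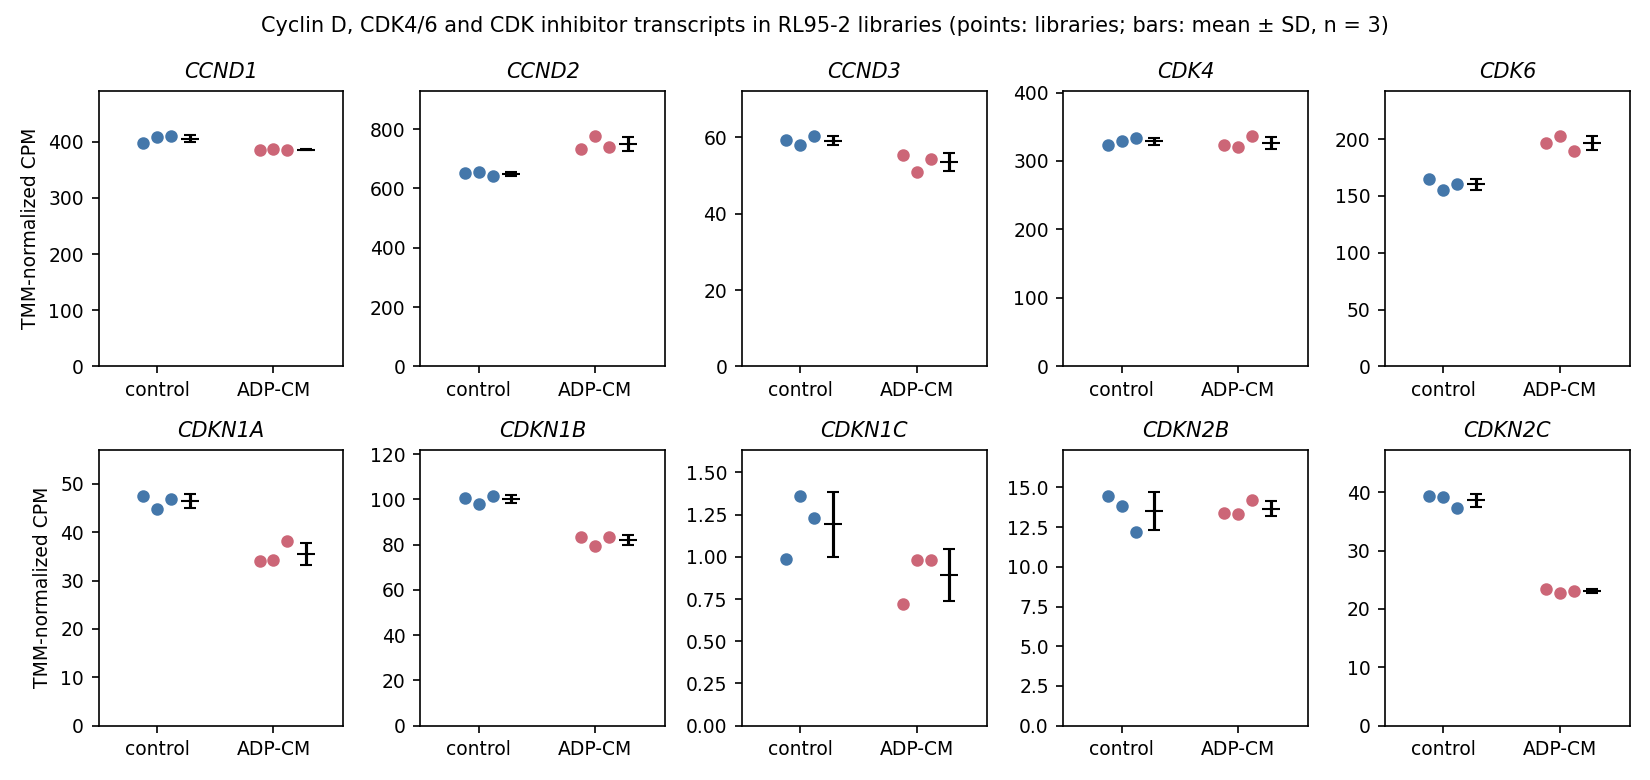
TMM-normalized CPM of the 10 genes in each library (y axis, from 0, with its own scale per gene), with the 3 control libraries in blue, the 3 ADP-CM libraries in red and the mean ± SD in black. CDKN2C shows the widest gap between groups for its level, from 37.3 to 39.4 CPM in control to 22.7 to 23.4 CPM in ADP-CM, while the groups of CDK4 and CDKN2B overlap.

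The bases in front of the transcription start are shown for the 4 genes among those with the firmest calls that had promoter entries in the RefSeq table, since CDKN2C, CDKN1A and CDKN1B moved together and CDK6 moved the other way. Entries were found for 7 of the 10 genes (CCND3, CDK4, CDK6, CDKN1A, CDKN1B, CDKN2B and CDKN2C), and not for CCND1, CCND2 and CDKN1C. Each sequence below is the 150 bases upstream of a start in RefSeq (GRCh38.p14), 5′ to 3′ on the gene's strand, placed on GRCh37 by an exact match to that genome. Capitals mark the GC box GGGCGG and the E2F site core TTCCCGC on either strand, which can overlap where they share bases. CDKN2C is shown at 2 of its 3 listed starts, the second lying upstream of the first. The second was picked for holding the most GC boxes, so its count of them is not a result. The reads per gene do not tell these starts apart.
CDKN2C, chr1:51435767-51435916, plus strand: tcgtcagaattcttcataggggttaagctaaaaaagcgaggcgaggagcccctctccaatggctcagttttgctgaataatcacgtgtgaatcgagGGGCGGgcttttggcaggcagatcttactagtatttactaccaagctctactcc
CDKN2C, chr1:51434228-51434377, plus strand: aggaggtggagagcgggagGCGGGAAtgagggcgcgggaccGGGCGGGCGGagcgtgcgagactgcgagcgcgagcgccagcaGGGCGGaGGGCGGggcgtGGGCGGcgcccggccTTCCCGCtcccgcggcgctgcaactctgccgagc
CDKN1A, chr6:36646341-36646490, plus strand: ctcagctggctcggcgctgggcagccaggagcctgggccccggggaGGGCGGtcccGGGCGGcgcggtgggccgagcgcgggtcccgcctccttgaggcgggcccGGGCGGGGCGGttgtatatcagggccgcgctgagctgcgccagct
CDKN1B, chr12:12870152-12870301, plus strand: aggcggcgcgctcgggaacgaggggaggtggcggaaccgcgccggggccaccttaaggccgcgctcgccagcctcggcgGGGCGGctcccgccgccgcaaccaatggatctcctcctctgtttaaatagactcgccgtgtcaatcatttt
CDK6, chr7:92465888-92466037, minus strand: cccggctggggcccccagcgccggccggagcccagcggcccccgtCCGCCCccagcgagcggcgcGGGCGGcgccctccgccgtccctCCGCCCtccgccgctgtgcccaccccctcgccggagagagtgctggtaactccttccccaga

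The upstream CDKN2C window held 5 GC boxes and 2 E2F cores, and the downstream one held 1 GC box and no E2F core. CDKN1A held 4 GC boxes, CDK6 held 3 at the start shown and CDKN1B held 1. The starts of CDKN2C and CDK6 that are not shown had 0 GC boxes and 0 E2F cores in their 250 bases. In the 250 bases upstream of every start in the table, a GC box stood in 42.6% of 35116 promoters and in 9 of the 12 entries of the 7 genes, at least 1 for each gene, so it was shared by genes that rose, fell and did not pass the test. The E2F core stood in 5.52% of all promoters and in 1 of the 12 entries, a start of CDKN2C. The E-box CACGTG stood in 6.34% of all promoters and in 3 of the 12 entries, those of CDK4 and CDKN2C. CCAAT stood in 32% of all promoters and in 4 of the 12 entries, those of CCND3, CDKN1B and CDKN2C. The palindrome TTCNNNGAA, which STAT factors can bind, stood in 6.57% of all promoters and in 0 of the 12 entries. The AP-1 site TGANTCA (6.57% of all promoters) and the forkhead site TGTTTAC (2.98%) were found in none of the 12 windows of these genes either. At such shares few or none of 12 windows would hold a motif, so its absence here is not a result. A match in these letters is a description and not a bound site.

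Among the D-type cyclins, CCND2 rose while CCND1 and CCND3 were slightly lower. CCND2 (GRCh37, chromosome 12, 4378937 to 4414519, plus strand, 5 exons) encodes cyclin D2, a rate-limiting partner of CDK4 and CDK6. Its levels were 652.2, 654.9 and 641.7 CPM in the control libraries and 733.4, 775.1 and 740.0 CPM in the ADP-CM libraries. Every ADP-CM library was higher than every control library. The means were 649.6 ± 6.97 and 749.5 ± 22.4 CPM (SD, n = 3 each), a rise of 15.4% (log2 fold change 0.21, SE 0.020, adjusted p-value 1.62e-13, edgeR). Another gene on the same strand, without a name, shares 12.5% of the exonic bases of CCND2.

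CCND1 (chromosome 11, 69455924 to 69469242, plus strand, 5 exons) encodes cyclin D1, the member of the family most often raised in carcinomas. Its levels were 397.8, 408.4 and 409.4 CPM in control and 385.5, 386.7 and 385.9 CPM in ADP-CM. The groups did not overlap, and control replicate 1 stood nearest to the ADP-CM libraries. The mean fell by 4.73%, from 405.2 ± 6.43 to 386.0 ± 0.632 CPM (SD, n = 3 each; log2 fold change -0.070, SE 0.021, adjusted p-value 0.00689, edgeR). With DESeq2 the adjusted p-value was 0.0187, and in the edgeR test it was 0.0442 without control replicate 2, 0.0395 without control replicate 3 and 0.0356 without ADP-CM replicate 1, so the call was lost in each. LTO1, on the opposite strand, covers 10.4% of its exonic bases. CCND3 (chromosome 6, 41902672 to 42018095, minus strand, 5 exons), which encodes cyclin D3, had 59.3, 58.0 and 60.2 CPM in control and 55.3, 50.8 and 54.4 CPM in ADP-CM. Its groups did not overlap, and it fell by 9.56% (log2 fold change -0.15, SE 0.043, adjusted p-value 0.00517, edgeR). This call too was lost with DESeq2 (adjusted p-value 0.0439) and, in the edgeR test, without control replicate 1 (0.0175), without control replicate 3 (0.0341) and without ADP-CM replicate 2 (0.0505).

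The make-up of the D-type cyclins, which does not depend on how libraries are scaled, moved towards CCND2. Per kilobase of the canonical transcript, CCND2 made up 44.9%, 44.7% and 43.9% of the reads of the 3 cyclins in control and 48.9%, 50.6% and 49.2% in ADP-CM. Its share rose by 5.06 percentage points, from 44.5% ± 0.536 to 49.6% ± 0.960 (SD, n = 3 each), and the groups did not overlap. The share of CCND1 went from 42.5% ± 0.479 to 39.1% ± 0.343 and that of CCND3 from 12.99% ± 0.281 to 11.3% ± 0.617 (SD, n = 3 each). The summed level of the 3 cyclins was 224.9 ± 1.16 reads per kilobase at the CPM scale (RPKM) in control and 232.9 ± 2.43 RPKM in ADP-CM (SD, n = 3 each), higher by 3.59%. Each of these differences had an exact permutation p of 0.10 (two-sided), the smallest that 3 libraries against 3 allow, and 0.133 after Benjamini-Hochberg adjustment over the 12 shares and sums that were tested. None of the 12 could therefore pass a threshold of 0.05.

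**Figure D2:**
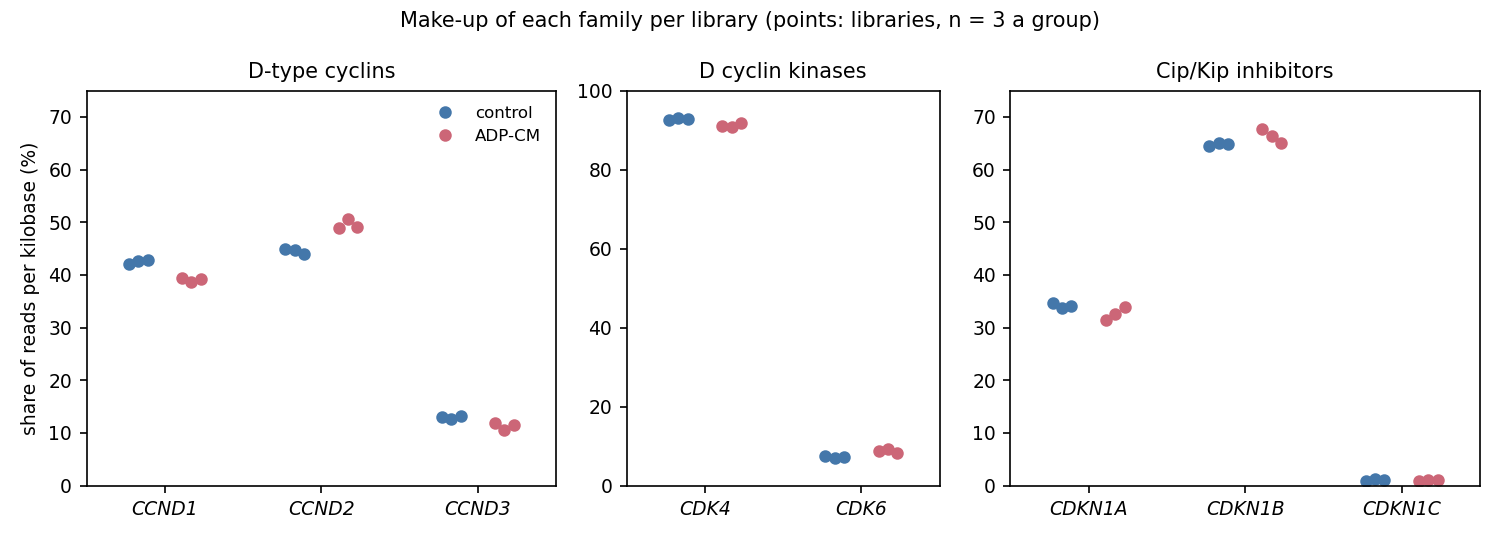
Share of each gene in the reads per kilobase of its family (y axis, percent, from 0) in the 3 control (blue) and 3 ADP-CM (red) libraries, for the D-type cyclins, the kinases CDK4 and CDK6, and the Cip/Kip inhibitors. CCND2, CDK6 and CDKN1B take larger shares in every ADP-CM library, on average from 44.5% to 49.6%, 7.24% to 8.78% and 64.8% to 66.3%. The shares of CDKN1A and CDKN1C overlap between the groups.

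Of the kinases that the D-type cyclins activate, CDK6 rose and CDK4 showed no detectable difference. CDK6 (chromosome 7, 92234235 to 92465887, minus strand, 8 exons) had 165.1, 155.3 and 160.6 CPM in control and 196.7, 202.3 and 189.9 CPM in ADP-CM. All ADP-CM libraries lay above all control libraries. The mean rose by 22.4%, from 160.3 ± 4.90 to 196.3 ± 6.24 CPM (SD, n = 3 each; log2 fold change 0.29, SE 0.028, adjusted p-value 2.94e-13, edgeR). CDK4 (chromosome 12, 58141510 to 58149796, minus strand, 8 exons) had 323.1, 329.7 and 333.5 CPM in control and 323.2, 320.3 and 335.8 CPM in ADP-CM. These groups overlapped throughout, and the log2 fold change of -0.010 had a 95% interval of -0.057 to 0.036 (adjusted p-value 0.764 in the edgeR test).

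TSPAN31, on the opposite strand, covers 44.2% of the exonic bases of CDK4. The strand setting of the counting is not given, so reads of the pair could not be separated with certainty. TSPAN31 itself stood at 11.9 ± 0.974 CPM in control and 11.9 ± 0.686 CPM in ADP-CM (SD, n = 3 each), far under CDK4. Per kilobase, CDK6 made up 7.55%, 7.004% and 7.15% of the reads of both kinases in control and 8.87%, 9.18% and 8.29% in ADP-CM, so CDK4 remained the more abundant transcript in each library. The share of CDK6 rose by 1.54 percentage points with no overlap (exact permutation test, two-sided, p = 0.10, adjusted 0.133), and the summed level of both kinases was 190.0 ± 2.60 RPKM in control and 191.9 ± 3.92 RPKM in ADP-CM (SD, n = 3 each, exact permutation p = 0.60).

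The Cip/Kip inhibitors CDKN1A and CDKN1B fell to a similar degree. CDKN1A (chromosome 6, 36644237 to 36655114, plus strand, 3 exons) encodes p21, which arrests cells after damage and in differentiation. It had 47.5, 44.7 and 46.8 CPM in control and 34.1, 34.3 and 38.2 CPM in ADP-CM. ADP-CM replicate 3 stood nearest to the controls but still below all of them. The mean fell by 23.4%, from 46.3 ± 1.46 to 35.5 ± 2.30 CPM (SD, n = 3 each; log2 fold change -0.38, SE 0.051, adjusted p-value 5.59e-09, edgeR). DINOL, on the opposite strand, covers 4.87% of its exonic bases.

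CDKN1B (chromosome 12, 12838432 to 12875303, plus strand, 3 exons) encodes p27, which holds CDK2 inactive in resting cells. It had 100.7, 98.1 and 101.6 CPM in control and 83.4, 79.4 and 83.4 CPM in ADP-CM. Both groups were tight and well apart. The mean fell by 18%, from 100.1 ± 1.84 to 82.1 ± 2.30 CPM (SD, n = 3 each; log2 fold change -0.29, SE 0.035, adjusted p-value 3.73e-10, edgeR). CDKN1C (chromosome 11, 2904443 to 2907005, minus strand, 4 exons), the imprinted gene of p57, was barely expressed, with read counts of 16, 23 and 21 in control and of 13, 18 and 18 in ADP-CM. In CPM the lowest control library (0.986) and the highest ADP-CM library (0.982) nearly met. Its log2 fold change of -0.42 had a 95% interval of -1.0 to 0.17 (adjusted p-value 0.273 in the edgeR test), so a fall as large as that of CDKN1A could not be detected at this depth.

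CDKN1A and CDKN1B fell together, and the make-up of the family moved slightly towards CDKN1B. Per kilobase, CDKN1B made up 64.8% ± 0.287 of the Cip/Kip reads in control and 66.3% ± 1.33 in ADP-CM, CDKN1A 34.2% ± 0.468 and 32.7% ± 1.21, and CDKN1C 1.05% ± 0.185 and 0.982% ± 0.168 (SD, n = 3 each). The libraries overlapped for CDKN1A (exact permutation test, two-sided, p = 0.20, adjusted 0.24) and for CDKN1C (p = 0.60, adjusted 0.60). The summed Cip/Kip level fell by 19.9%, from 64.1 ± 1.32 to 51.3 ± 1.74 RPKM (SD, n = 3 each), with no overlap and the smallest exact p of 0.10.

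Of the INK4 inhibitors, CDKN2C showed the largest change of all 10 genes and CDKN2B none that could be detected. CDKN2C (chromosome 1, 51426417 to 51440306, plus strand, 2 exons in the canonical transcript) encodes p18, which binds CDK4 and CDK6 directly. It had 39.4, 39.1 and 37.3 CPM in control and 23.4, 22.7 and 23.1 CPM in ADP-CM. The mean fell by 40.2%, from 38.6 ± 1.17 to 23.1 ± 0.341 CPM (SD, n = 3 each). On the log2 scale this was -0.74 (SE 0.056, 95% interval -0.85 to -0.63), and the adjusted p-value was 1.0e-17 by edgeR and 3.31e-21 by DESeq2. An unnamed gene on the opposite strand covers 20.4% of its exonic bases. As in any bulk sample, fewer cells that make a transcript and less of it per cell cannot be told apart.

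CDKN2B (chromosome 9, 22002902 to 22009304, minus strand, 2 exons) encodes p15, which is known as a target of TGF-beta. It had 14.5, 13.9 and 12.2 CPM in control and 13.4, 13.4 and 14.2 CPM in ADP-CM. The groups overlapped, and the log2 fold change of 0.016 had a 95% interval of -0.15 to 0.18 (adjusted p-value 0.902 in the edgeR test), which excludes a change as large as that of CDKN2C in either direction. The remaining genes of the family, CDKN2A and CDKN2D, were both lower. CDKN2D, which encodes p19, fell from 7.61 ± 0.965 to 5.22 ± 0.366 CPM (SD, n = 3 each; log2 fold change -0.54), and its adjusted p-value in the edgeR test went from 0.000292 to 0.0118 without control replicate 2. CDKN2A fell from 100.1 ± 4.84 to 89.2 ± 2.88 CPM (SD, n = 3 each; log2 fold change -0.17, SE 0.036, adjusted p-value 0.000139, edgeR). The transcripts for p16 and p14ARF are counted together under that symbol. The summed level of CDKN2B and CDKN2C was 42.3 ± 1.48 RPKM in control and 26.75 ± 0.375 RPKM in ADP-CM (SD, n = 3 each), lower in all 3 ADP-CM libraries (exact permutation test, two-sided, p = 0.10, adjusted 0.133). CDKN2C gave most of this sum, 38.8 of 42.3 RPKM in control by the canonical transcript, and less over all annotated exons, where it had 12.8 RPKM beside 3.38 RPKM of CDKN2B.

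**Figure D3:**
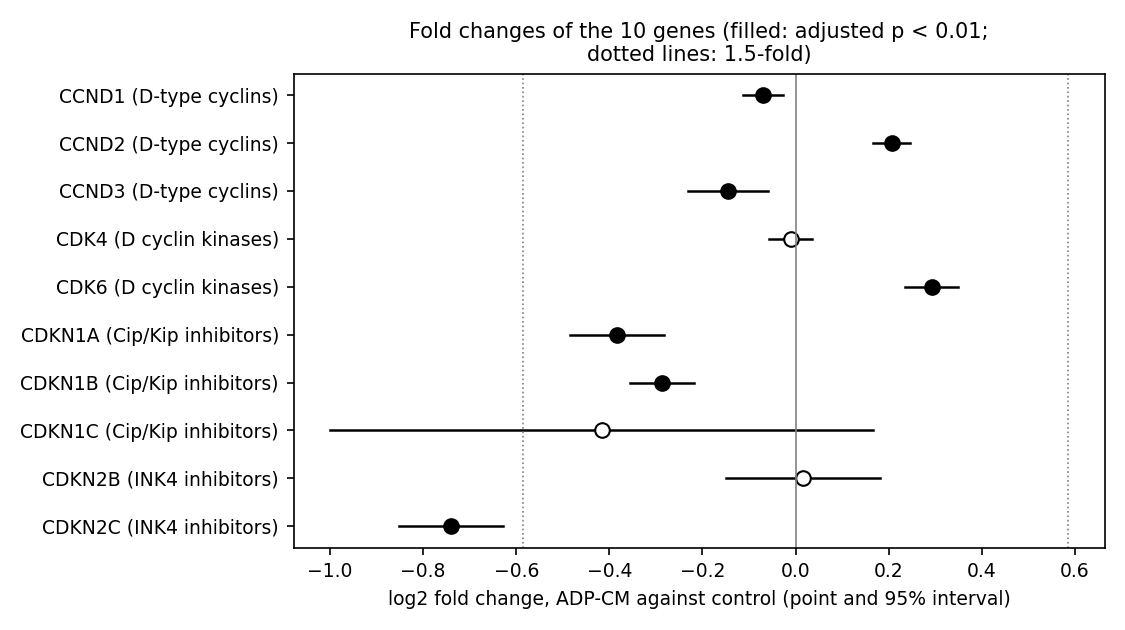
Log2 fold change of ADP-CM against control (x axis) for each of the 10 genes, with its 95% interval, where filled points mark genes called by edgeR (adjusted p-value under 0.01) and dotted lines mark a 1.5-fold change. CDKN2C at -0.74 is the only gene past a 1.5-fold change, CCND2 and CDK6 lie to the right at 0.21 and 0.29, and the wide interval of CDKN1C spans 0.

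Levels of different genes were compared per kilobase of the canonical transcript. In control the order was CDK4 (176.3 ± 2.82 RPKM), CCND2 (100 ± 1.07), CCND1 (95.6 ± 1.52), CDKN1B (41.5 ± 0.764), CDKN2C (38.8 ± 1.18), CCND3 (29.2 ± 0.559), CDKN1A (21.9 ± 0.688), CDK6 (13.8 ± 0.420), CDKN2B (3.51 ± 0.303) and CDKN1C (0.672 ± 0.107, SD, n = 3 each). The libraries of neighbours in this order did not overlap. In ADP-CM CDKN2C, at 23.2 ± 0.342 RPKM, stood under CCND3 at 26.4 ± 1.17, and CDK6 and CDKN1A reached the same level, 16.8 ± 0.535 and 16.8 ± 1.09 RPKM (SD, n = 3 each), with overlapping libraries. Much of the order below CDK4 rests on the transcript length that is assumed. Over the length of all annotated exons, CCND1 stood above CCND2 in control, at 85.1 against 81.3 RPKM. CDKN2C then had 12.8 and CDKN1B 10.8 RPKM in control, both under CDKN1A at 15.5. With either length CDK6 stood under CDKN1A in control, and over all exons it stood above it in ADP-CM, at 16.04 against 11.85 RPKM. CDK4 was the most abundant of the 10 transcripts with both lengths.

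The other genes of the pathway moved in both directions. CCNE2 and CDKN2D, with log2 fold changes of -0.60 and -0.54, fell more than each of the 10 genes but CDKN2C. MYC and SMAD3, at 0.32 and 0.30, rose more than CDK6 at 0.29. Of 64 tested genes in 6 lists 10 were raised and 12 were lowered, with a median log2 fold change of -0.0074, and only CCNE2 passed a 1.5-fold change. Those counts stand beside the 26.5% called among all tested genes. Among the 13 pocket protein and E2F genes, 2 were raised and 3 lowered. RB1, which encodes the retinoblastoma protein that cyclin D kinases act on, fell by 0.15 on the log2 scale (adjusted p-value 7.55e-05 in the edgeR test). E2F7, a repressor among the E2F factors, fell by 0.20, and E2F5 and E2F4, which act with the pocket proteins in resting cells, had log2 fold changes of 0.26 and 0.12. The call of E2F4 was lost with DESeq2 (adjusted p-value 0.0206) and without 3 of the 6 libraries in turn.

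Of the 6 genes around cyclin E and CDK2, which act after the D cyclins at the entry into S phase, 2 were lowered and 0 raised by edgeR and by DESeq2. By edgeR 13% of all tested genes were called lowered. At an unadjusted p under 0.05 in the edgeR test CCNE1 was lower as well and 0 were higher. At least 36.7% of all tested genes passed that limit in either direction. CCNE2, encoding cyclin E2, fell from 77.2 ± 3.04 to 50.8 ± 1.92 CPM (SD, n = 3 each; log2 fold change -0.60, SE 0.041, adjusted p-value 1.1e-19, edgeR). Its reads were 1196, 1336 and 1348 in control and 892, 971 and 923 in ADP-CM, so the deeper libraries held fewer. CCNA2, encoding cyclin A2, fell by 0.15 on the log2 scale, while CCNE1 and CDK2 had log2 fold changes of -0.091 and 0.048 and did not pass the test (adjusted p-values 0.0645 and 0.201).

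Among 14 genes of the ubiquitin ligases that turn over D cyclins and CDK inhibitors, 2 were raised and 2 lowered. That is near the 26.5% of all tested genes called in either direction. SKP2, which marks p27 for destruction, fell by 0.15 on the log2 scale, and DTL, an adaptor for the degradation of p21, fell by 0.10. RNF123, a ligase for p27 in the cytoplasm, and FBXO31, an adaptor for cyclin D1, rose with log2 fold changes of 0.26 and 0.21, although FBXO31 was not past the threshold with DESeq2 (adjusted p-value 0.0283) or, in the edgeR test, without any 1 of control replicates 1 and 3 and ADP-CM replicate 2. Of the 3 genes of the CDK-activating kinase, CCNH, its cyclin, rose by 0.22 on the log2 scale, and CDK7 and MNAT1 had log2 fold changes of 0.14 and -0.043 with adjusted p-values of 0.0246 and 0.540 in the edgeR test.

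Of 26 tested transcription factors and chromatin regulators known to act on the 10 genes, 5 were raised and 3 lowered. This too is near the 26.5% called among all tested genes. MYC, which represses CDKN1A and CDKN2B and activates CCND2 in many cells, rose from 258.2 ± 0.502 to 322.0 ± 6.11 CPM (SD, n = 3 each; log2 fold change 0.32, adjusted p-value 3.54e-18, edgeR). SMAD3, a mediator of TGF-beta signals, and CTNNB1, the gene of beta-catenin, rose with log2 fold changes of 0.30 and 0.17. JUNB fell by 0.23 on the log2 scale. STAT3 showed no detectable difference, with a log2 fold change of -0.019 (adjusted p-value 0.567 in the edgeR test).

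Of 16 proliferation markers 5 were lowered and 0 raised by edgeR and by DESeq2, and at an unadjusted p under 0.05 in the edgeR test 11 of the 16 were lower and 1, AURKA, was higher. Among all tested genes 13% were called lowered. At the unadjusted limit the share of all tested genes was at least the 36.7% that passed an adjusted p under 0.05 in either direction. PCNA, the sliding clamp of DNA replication, fell from 454.5 ± 0.196 to 396.4 ± 0.883 CPM (SD, n = 3 each; log2 fold change -0.20). MCM5 of the replicative helicase, the mitotic cyclin gene CCNB2 and the topoisomerase gene TOP2A were lower, with log2 fold changes of -0.13, -0.14 and -0.096. MKI67, the gene of the Ki67 antigen, stood at 698.4 ± 16.2 and 688.7 ± 10.4 CPM (SD, n = 3 each; log2 fold change -0.020, adjusted p-value 0.450, edgeR). The median of the list was -0.055 on the log2 scale, so the markers moved less than CDKN2C, CDKN1A, CDKN1B and CDK6.

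**Figure D4:**
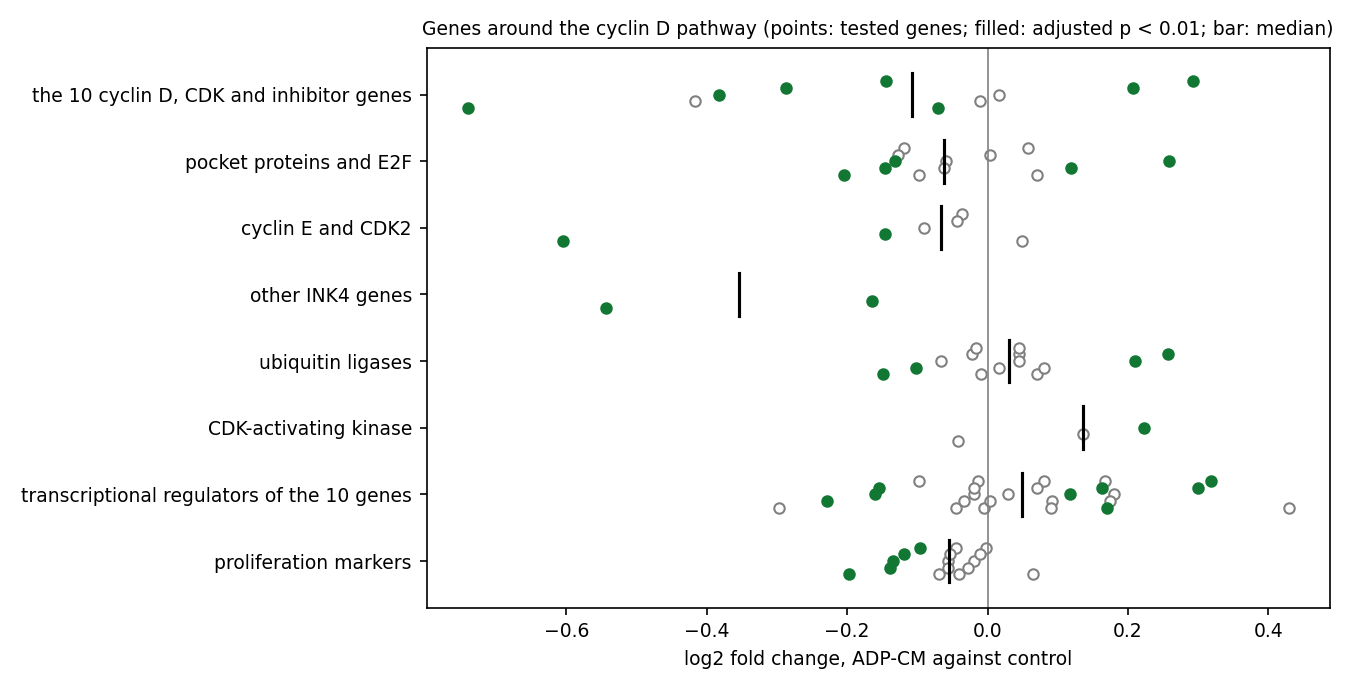
Log2 fold change of ADP-CM against control (x axis) for the 10 genes and for the tested genes of each list around the pathway (y axis), with filled points for genes called by edgeR (adjusted p-value under 0.01) and a bar at each list's median. The list medians lie between -0.067 and 0.14 except for the other INK4 genes (-0.35, 2 genes) and the 10 genes themselves (-0.11), and CDKN2C and CCNE2 stand farthest to the left.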

How the data were processed

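RNA of 6 RL95-2 samples (3 control, 3 ADP-CM) was sequenced from stranded poly(A) libraries as 50 bp single reads. The authors aligned reads to hg19 with TopHat2 and deposited raw counts per RefSeq gene from HTSeq (versions and strand setting not given in the sources used here). HTSeq does not count reads with several alignments on genes, and its line for them came to 20.5% to 20.8% of the total. Whether that line holds such a read once or once per alignment is not given. The summary lines of HTSeq, which belong to no gene, entered neither the library sizes nor the tests, and the share of reads on no gene was 10.2% to 11.6%. Samples were grouped by title. From the counts, edgeR 4.0.16 in R 4.3.3 was run with TMM, filterByExpr (12663 of 23228 genes kept) and the quasi-likelihood test, adjusted over all tested genes. Standard errors are the log2 fold change over the root of its F statistic. DESeq2 1.42.0, other scalings and filters, a replicate term and each library left out were alternatives. Intervals of fold changes are at 95%. On counts simulated for this comparison (12599 genes fitted, 50 changed per fold size), edgeR recovered 70% at 1.25-fold and 96% at 1.5-fold, with 5 false calls. No replicate pair was as close as sampling noise alone would leave it, with chi-square over degrees of freedom of 1.23 to 2.05. The common coefficient of variation between replicates in the edgeR fit was 1.67%, and the simulation used it for every gene. RPKM and shares used canonical transcripts of GENCODE release 44 on GRCh37, the coordinates of hg19. Shares were compared by exact permutation tests. The genes and lists were chosen with earlier results of these data known. All 10 genes were named, and up to 4 genes per list by smallest p-value. MKI67, AURKA, STAT3, ESR1, MUC1, TSPAN31, CDKN2B-AS1 and the unexpressed marker genes were named after their values were seen. One further gene list is not reported here.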

Additional observations from a re-analysis of the deposited data

Results flagged for a closer look

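Reads that lay on no annotated gene enter none of the comparisons. Their share of all counts, on genes or unassigned, was 10.3% ± 0.0525 in the control libraries against 11.6% ± 0.0332 in those with ADP-CM (SD, n = 3 each), higher in all 3 of the latter. Which sequences these reads came from was not analysed here.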

How the results depend on the processing

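Across 12 alternatives, CCND2, CDK6, CDKN1A, CDKN1B and CDKN2C kept their direction and were called in each (adjusted p-value under 0.01), with log2 fold changes of 0.18 to 0.22, 0.27 to 0.32, -0.44 to -0.35, -0.30 to -0.27 and -0.77 to -0.73. CCND1 and CCND3 were called in 8 of 12 each. The genes lowered numbered 3 to 5 when single libraries were left out (3 without control replicate 3) and 3 with DESeq2, and the genes raised 2 in all of these. With a fold change over 1.5 as well, 0 were raised and 1 was lowered. With single libraries left out, the log2 fold change ranged from -0.0315 to 0.0021 for CDK4 and from -0.0526 to 0.0669 for CDKN2B, neither of them called. The sign changed without control replicate 3 (0.0002 and -0.0526), and without ADP-CM replicate 2 (CDK4, 0.0021) or ADP-CM replicate 3 (CDKN2B, -0.012). The share of CDKN1C changed by -0.069 percentage points with all libraries and by -0.17 to 0.025 when single libraries were left out (0.019 without control replicate 2). The other pathway genes gave 7 to 10 raised and 10 to 12 lowered. With the replicate block 2 of the 10 genes were raised and 5 lowered, as without it. The deviations of same-numbered libraries correlated at 0.051, 0.029 and 0.108 across genes. Libraries with different numbers were not compared in this way, so whether the numbers pair cultures could not be told. Plain library sizes or DESeq2's size factors moved the median of all genes by under 0.01 on the log2 scale. Without division by length the share of CDK6 rose by 4.77 percentage points in place of 1.54 and that of CCND3 changed by -0.808 in place of -1.65. The length over all exons, chosen after the data were seen, gave 2.23 and -0.768, and both settings kept the direction of every share. CDKN1C, with 13 to 23 reads, was limited by depth.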

Other observations

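By the root mean square difference over the 6 libraries of log2 CPM (with 0.5 added) centred on the control mean, the tested genes whose pattern lay nearest to that of CDKN2C were TRIM29 (0.029), ID1 (0.039) and ATOH8 (0.040). Their log2 fold changes were -0.71, -0.71 and -0.79. The selection by pattern holds these near that of CDKN2C, so the likeness is not a result. ID1 encodes an inhibitor of basic helix-loop-helix factors, and its level went from 331.9 to 202.4 CPM.

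CDKN2B-AS1, the antisense transcript beside CDKN2B, was counted with 22, 18 and 30 reads in control and with 18, 15 and 18 in ADP-CM. Its log2 fold change of -0.58 was not past the threshold (adjusted p-value 0.0983 in edgeR's quasi-likelihood test, 95% interval -1.14 to -0.019), while CDKN2B stayed at 13.5 ± 1.17 and 13.7 ± 0.462 CPM (SD, n = 3 each).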
